A study of Drosophila melanogaster with 2 samples.

Results

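The 300 sites described here were the strongest peaks of CG2129-eGFP that lay inside exons and away from gene starts. They came from the authors' pooled ranked list, of whose 47947 peaks 47806 lie on chromosomes X and 4 and on 2L, 2R, 3L and 3R of the dm6 assembly. A peak qualified when its summit was more than 500 bp from every annotated transcription start site (TSS) and inside an annotated exon, whether coding, untranslated (UTR) or non-coding. Of the ranked peaks on these arms 13926 qualified, and the 300 with the highest pooled signal were taken as members, so they were chosen by a measured value, the signal. The peaks come from chromatin immunoprecipitation and sequencing (ChIP-seq) of whole Drosophila melanogaster embryos aged 0 to 4 h, from the transgenic strain CG2129-GFP, which expresses CG2129 fused to enhanced green fluorescent protein (eGFP). An antibody against GFP was used for the precipitation. There are 2 biological replicates of this 1 group, so sites were compared with other sites and not between conditions. The fusion is a transgene, the embryos mix all cell types of these hours, and a control experiment named in the labels is not analysed here, so that recovery of DNA without the tagged protein was not assessed.

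CG2129 encodes a protein with C2H2 zinc fingers, a fold that often binds DNA. Proteins of this kind are usually mapped to promoters and enhancers, and a peak over an exon far from a start can sit over coding sequence, over an untranslated end that runs up to the next gene in the compact fly genome, or over an internal start that the annotation lacks. Short sequences recur at fly promoters: TATCGATA, the DNA replication-related element (DRE), is the target of DREF and is common at genes that most cells use, and its part CGATA is bound by the boundary protein BEAF-32. CAGGTAG is bound by Zelda, the factor that opens chromatin for the first zygotic genes of the embryo.

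The 3 strongest members shared a 9-base sequence, CGTGTCACG, or its reverse complement CGTGACACG, and their windows are shown because no weaker member had it. Capitals mark the match. All lines give the plus strand of Release 6 (dm6), from the NCBI copy of the assembly. The first covers X:796533-796562, the next 3L:1352147-1352176, the next 3L:2590672-2590701, and the last X:758968-758997, in a second copy of the CG16989 stretch that lies between genes.
CG16989: cttgctcattCGTGACACGaacatcaagaa
CG9166: ttgttattctCGTGTCACGgccaaaataac
dos: ctcaggagttCGTGACACGacactctgtag
copy of CG16989: cgtgctaattCGTGACACGaacatcaagaa
The centre of the match lay 3 bp from the summit in CG16989, 14 bp in CG9166 and 77 bp in dos. It was picked after these windows had been read, so its count among the members describes them and tests nothing.

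Of the members with the DRE, those on arms X, 2L and 3L are shown next, again with the match in capitals on the plus strand. They lay at 3L:21770985-21771014 in CG7370, X:11993459-11993488 in fw, 2L:12482690-12482719 in bun, 2L:9968526-9968555 in RpL13, X:2376090-2376119 in PsGEF and X:16845316-16845345 in CG13003. All but the bun site, which is coding, are in 3' UTRs.
CG7370: agggttttcctTATCGATAtctaatcgatg
fw: attgatatagaTATCGATAtcgatatagat
bun: tcagttttcatTATCGATAttacgataatt
RpL13: ggcgtaagactTATCGATAacccgtgttgc
PsGEF: ctcgatcgataTATCGATAgtcgattctcg
CG13003: atgtatctgcaTATCGATAgttgatcgcca
The fw window held a pair of overlapping copies, 9 and 15 bp from the summit, and the RpL13 window copies 23 and 42 bp from it.

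Signal is the value that the authors' peak caller gave each peak, on a scale that the deposited files do not state. It chose the members, so it is given as a description. Member signals ran from 26.2 to 248 with a median of 29.1, while the 13626 other exonic sites had a median of 12.2. The limit cut through a dense part of the ranking. The 3 sites just inside it were at CG6329 with 26.27, lncRNA:CR44922 with 26.25 and bin3 with 26.24. The 3 just outside were at p38b, Prx3 and enok, each with 26.24. The sites therefore do not form a class that ends at rank 300. A clear step lies higher up, between rank 3 with 165 and rank 4 with 68.5. In the 300 highest intronic, intergenic and promoter sites, medians were 29.96, 28.0 and 198.

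**Figure D1:**
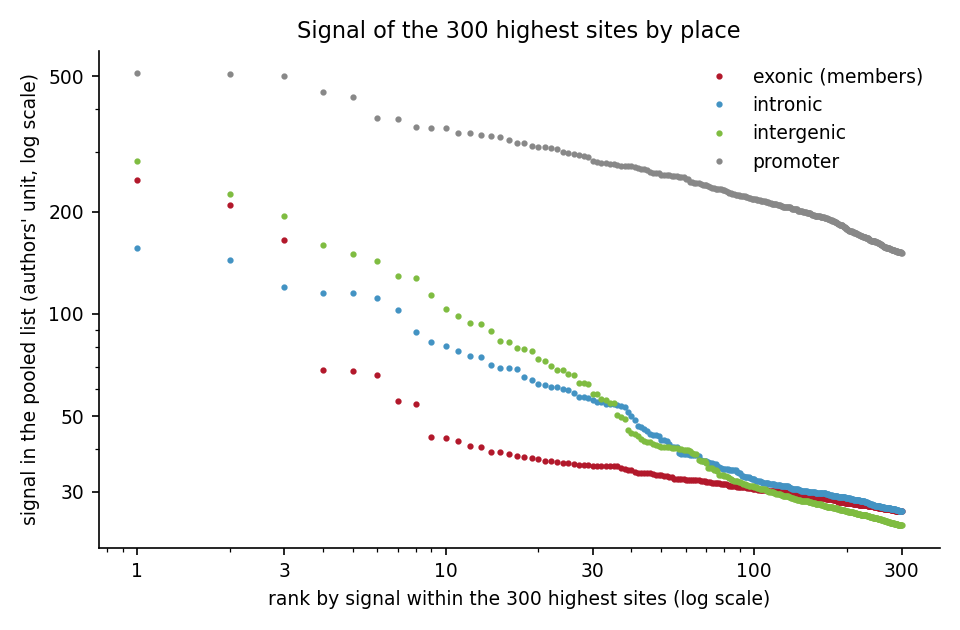
Signal in the pooled list (log scale) against rank (log scale) for the 300 highest exonic, intronic, intergenic and promoter sites, 1 point a site. The 3 highest exonic sites sit at 165 to 248, and the other 297 begin at 68.5 and run down to 26.2.

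The strongest member, X:796348-796708, lay in the 3' UTR of CG16989, 3403 bp from the nearest TSS. Its signal was 248 in the pooled list, 125 in replicate 1 and 114 in replicate 2. The next, 3L:1351992-1352331, lay in the 3' UTR of CG9166 and had 209 in the pooled list, 90.8 in replicate 1 and 117 in replicate 2. The next, 3L:2590454-2590738, lay in the 5' UTR of dos, an adaptor protein of receptor tyrosine kinase signalling, 1195 bp from its TSS, with 165, 82.6 and 85.4 in the same lists. These 3 sites were high in both replicates. Both replicates' own thresholded lists also hold them. Their peaks were 361, 340 and 285 bp long, against 404 bp for 296 of the 300 members. Of all pooled ranked peaks on the arms they ranked 63, 123 and 242 by signal, within the range of the 300 highest promoter sites (151 to 511).

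The DNA under the strongest member is not unique in the genome. A stretch at X:758883-759085 matched the CG16989 window over 203 bp at 91.6% identity. It holds the 9-base sequence too. It underlies the strongest of the ranked intergenic sites over 500 bp from a TSS, X:758828-759130, 607 bp from the nearest one. That peak had a signal of 282 in the pooled list, 157 in replicate 1 and 118 in replicate 2. A pair of weaker matches to the window, X:1063535-1063661 at 82.7% over 127 bp and X:546491-546567 at 85.7% over 77 bp, lacked the 9-base sequence and had no ranked peak. The treatment of reads that fit more than 1 place is not given, so signal at the copies cannot be told apart from reads shared between them. A second copy of at least 80% of the window at 90% identity or more was found for 2 of 300 members, CG16989 and CG5787. The repeat at CG5787 is local and runs into the same peak.

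Within 100 bp of the summit CGTGTCACG lay in 3 of 300 members (1.00%, 95% exact Clopper-Pearson interval 0.207 to 2.89) and in none of the 297 weaker ones. Among the 13626 other exonic sites 11 had it (0.0807%, 0.0403 to 0.144), and none of 600 windows centred 1000 bp to either side of the members did. All intervals here are of this kind and cover counting error only. The 300 highest intronic sites had it 8 times, the intergenic ones 12 times and the promoter ones 6 times, and of all 47806 ranked peaks 0.192% had it. The sequence occurs 384 times on the arms in either orientation, 45 of them in exons over 500 bp from a TSS. Of these 45 exonic copies 14 lay within 100 bp of a ranked summit (31.1%, 18.2 to 46.6). The 3 under members had signals of 165 to 248, and the other 11 had signals of 6.11 to 24.0, with Gug at 24.0 and Prp5 at 21.9 as the next highest. Of the 66 copies within 500 bp of a TSS 33 lay at a ranked summit, and 24 of these at a thresholded one.

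Below the 3 strongest, 10 members of ranks 4 to 21 were in the authors' pooled thresholded list. Every peak of the authors' pooled thresholded list has an irreproducible discovery rate (IDR, an estimate of how many of the peaks at a rank fail to recur in a second ranking) of at most 0.01. The list holds 2067 of the 2117 ranked peaks at that rate, and neither the reason for the difference nor the rankings compared are stated. It held 14 of 300 members (4.67%, 2.57 to 7.71), against 18 of all 13926 exonic sites (0.129%) and 2066 of all 47806 ranked peaks (4.32%). Since the list favours high signal, which chose the members, the first comparison follows in part from the rule. Among sites chosen in the same way, 44 of the 300 highest intronic sites were in that list (14.7%, 10.9 to 19.2). The 300 highest intergenic sites also had 44, and the promoter sites 288 (96.0%, 93.1 to 97.9). Of the 14 members 13 were among the 21 strongest, and 1 of ranks 22 to 100 and none of the 200 weaker members was in the list. Relaxed to an IDR of 0.05, the count of members was 51 (17%), against 0.242% of the other exonic sites. At that rate were 30.3% of the 300 highest intronic, 25.7% of the intergenic and 100% of the promoter sites. A −log10 IDR under 0.1, a rate far above the limit, was seen for 85 members (28.3%). The share was 70.2% of the other exonic sites, 23.3% of the intronic, 24.7% of the intergenic and 0% of the promoter sites.

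The thresholded members beyond the 3 strongest had these hosts. Their 3' UTR sites were at lwr, the SUMO-conjugating enzyme, with a pooled signal of 68.5, at exu, which is needed to localise bicoid mRNA in the egg, with 67.9, at CG18870 with 42.2, and at fw, a cell adhesion protein of the selectin kind, with 37.8. The lwr site (2L:540662-541065) had 56.5 in replicate 1 and 11.0 in replicate 2, and the fw site (X:11993263-11993666) 28.3 and 9.76. CG18870 (2R:21614008-21614411) went the other way, with 10.1 in replicate 1 and 31.8 in replicate 2. These 3 differed more than 2-fold between the replicates, while the exu site (2R:20668029-20668158), at 40.8 in replicate 1 and 35.5 in replicate 2, did not. The exu peak was also the only short one outside the 3 strongest.

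The coding sites of the thresholded list were led by FoxP, a forkhead transcription factor, at 3R:9726462-9726865 with a pooled signal of 55.3, 24.9 in replicate 1 and 34.5 in replicate 2. That summit lay 1049 bp from the nearest TSS, which belongs to the neighbour hyd, and 966 bp from a thresholded promoter summit. ATPsynbeta, the beta subunit of mitochondrial ATP synthase, followed at 4:1032944-1033347 with 54.2, 31.3 in replicate 1 and 20.6 in replicate 2. DCAF12, a substrate receptor of the Cul4 ubiquitin ligase, had 43.4, with 32.3 in replicate 1 and 17.0 in replicate 2. CG14024 had 37.0, with 18.4 in replicate 1 and 21.03 in replicate 2. Nup358, a nucleoporin of the cytoplasmic filaments, stood at rank 49 with 33.5, with 16.4 in replicate 1 and 20.2 in replicate 2, and was the last member in the list. Of the coding members outside it the highest was su(f), which acts in cleavage of mRNA 3' ends, with 39.1 in the pooled list, 27.6 in replicate 1 and 12.8 in replicate 2.

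Non-coding exons held 7 members, of which 2 were thresholded. The exon of lncRNA:CR45267 (2R:8023402-8023805) had 66.1 in the pooled list, 35.7 in replicate 1 and 30.9 in replicate 2, and asRNA:CR45912 (3L:18865351-18865754) had 38.7, 24.9 and 16.2 in the same lists. The next were asRNA:CR46091 with a pooled signal of 35.6 and lncRNA:CR44731 with 30.2. In the other 5' UTR sites of highest signal, spen, an RNA-binding corepressor, had a pair of members with 40.7 and 37.9. The gene tun had 39.3, and ph-p, a Polycomb group protein, had 37.4. None of these 4 was thresholded. The members of the 20 strongest not yet named were all 3' UTR sites outside the list, at CG7370 with 43.3, mRpL27, a protein of the mitochondrial ribosome, with 40.8, and Tlk, the Tousled-like kinase, with 38.2.

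Members were found in both replicates less uniformly than promoter sites. A peak that covered 50% or more of the member, or was covered by it to that extent, was present in both replicates' ranked lists for 221 of 300 members (73.7%, 68.3 to 78.6), against 3221 of all 13926 exonic sites (23.1%). The pooled signal that chose the members rests on reads of both replicates, so nothing is read from that difference. For sets chosen alike the shares were 79.7% of intronic (74.7 to 84.1), 77.7% of intergenic (72.5 to 82.3) and 100% of promoter sites. The promoter sites were not matched in signal: their lowest was 151, above every member but the 3 strongest. Of the 79 other members 43 had a peak in replicate 1 only and 36 in replicate 2 only. Over the 221 members in both lists replicate 1 signals and replicate 2 signals had a Spearman's rho of −0.29 (−0.34 without the 3 strongest). The members were selected on the pooled signal, which draws on both replicates, and the part of that selection in this value was not tested. Over all 3221 exonic sites with a peak in both lists rho was 0.06, and over the 300 highest promoter sites 0.52. These are correlations across sites, which are not independent replicates. A difference of more than 2-fold between the replicates was seen for 48 of the 221.

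**Figure D2:**
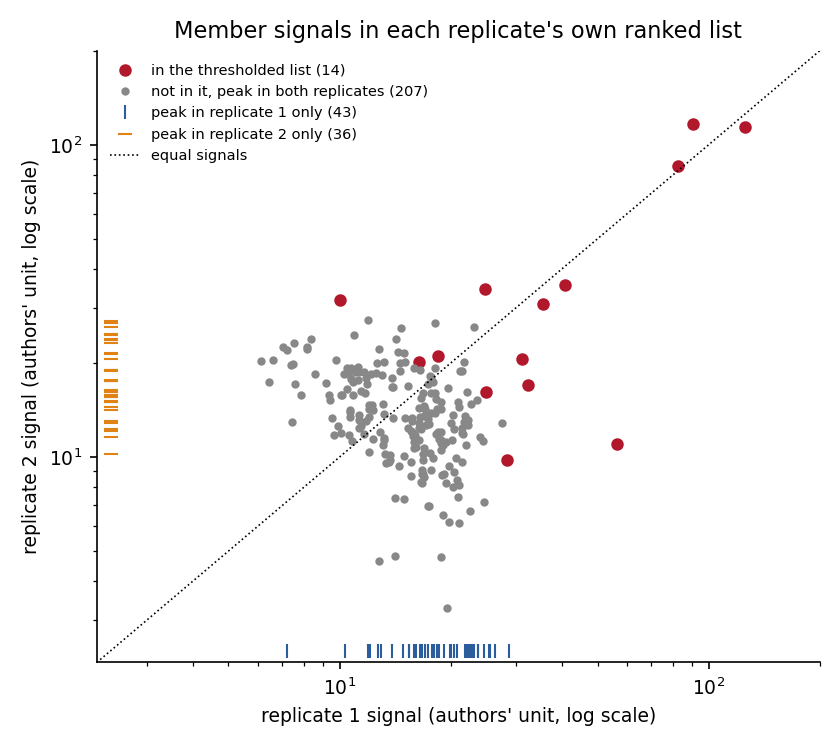
Signal of each member in replicate 2's ranked list against replicate 1's (both axes log, authors' unit), with the 14 thresholded members in red, the 207 others found in both in grey, and ticks along the axes for the 43 members in replicate 1 only and the 36 in replicate 2 only. Apart from the 3 sites at upper right, points lie across the diagonal rather than along it.

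Taking the 300 highest exonic sites from each replicate's own list gave a comparison that does not use the pooled signal. The replicates' lists had 16 sites in common (5.33%, 3.08 to 8.52). The lists of intronic sites shared 50 (16.7%, 12.6 to 21.4), those of intergenic sites 56 (18.7%, 14.4 to 23.5) and those of promoter sites 215 (71.7%). Of the members 17 were among the 300 highest exonic sites of both replicates, and 9 of these were thresholded. Replicate 1's own thresholded list held 11 members and that of replicate 2 held 8, with 5 in both. Of the 300 highest intronic sites these lists held 32 and 17, with 11 in both. Of the intergenic sites they held 27 and 25, with 14 in both, and of the promoter sites 288 and 286, with 286 in both. Of the 13626 other exonic sites they held 4 and 3, with 1 in both.

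**Figure D3:**
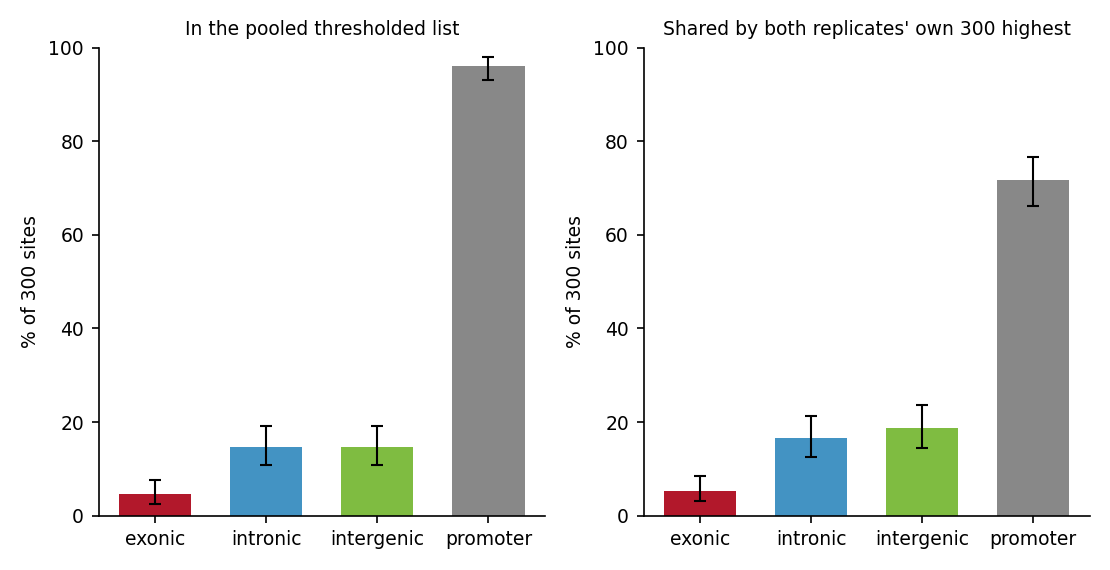
Percent of the 300 highest exonic, intronic, intergenic and promoter sites that are in the pooled thresholded list (left), and percent of replicate 1's own 300 highest sites that match one of replicate 2's (right), with 95% exact intervals over sites. Exonic sites are lowest in both panels, at 4.67% and 5.33%.

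By exon class, 240 members lay in coding sequence (80%, 75.02 to 84.4), against 82.5% of the other exonic sites. The 3' UTRs held 40 (13.3%, 9.70 to 17.7), against 11.9%, and the 5' UTRs 13 (4.33%, 2.33 to 7.30), against 2.86%. The make-up of the members was thus close to that of exonic peaks at large. It differed in the members of ranks 4 to 21, a band drawn after the values were seen. Of these 18 members only 5 were coding and 7 were in 3' UTRs. The coding ones were 65 of the 79 members of ranks 22 to 100, 83 of the next-to-last 100 members and 87 of the last 100. The 14 thresholded members were 6 in 3' UTRs, 5 coding, 2 non-coding and 1 in a 5' UTR.

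The DRE, its 7-base part TATCGAT and its part CGATA were searched within 100 bp of each summit, on both strands. TATCGATA was in 7 members (2.33%, 0.943 to 4.75): the 6 shown above and exu. With the 300 sites taken from either replicate's own list the share was 1.00%, and with sites over 1000 bp from a TSS 0.667%. The share was 0.205% of the other exonic sites and 1.33% of the windows 1000 bp to either side of the members. It was 5.33% of the 300 highest intronic sites, 7% of the intergenic and 37.0% of the promoter sites, and 2.36% of all ranked peaks. CGATA was in 86 members (28.7%, 23.6 to 34.1), 22.6% of the other exonic sites and 25.7% of the windows beside the members. Its share was 33% of the 300 highest intronic, 37.3% of the intergenic and 90.7% of the promoter sites, and 26.0% of all ranked peaks. TATCGAT, which every DRE contains, was in 19 members (6.33%, 3.86 to 9.71), in 1.92% of the other exonic sites (1.70 to 2.17) and in 64.7% of the 300 highest promoter sites. In sites taken from replicate 2's own list it was 4.33%, and from replicate 1's 2.67%. Over all ranked peaks its share was 5.46%. Windows beside the members were placed by distance alone and can fall outside exons, and the effect of this was not tested. They had TATCGAT in 5.50% (3.82 to 7.64), so taken over all members the sequence was about as common 1000 bp away as at the summit.

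That overall figure joined classes that differed. The split of TATCGAT by exon class was not among the planned results and was run under no alternative. Of the 40 members in 3' UTRs 10 had TATCGAT (25%, 12.7 to 41.2). Of the 1622 other 3' UTR sites 2.65% had it, and of the 80 windows beside those members 3.75%. Of the 240 coding members 7 had it (2.92%, 1.18 to 5.92), against 1.86% of the other coding sites and 5.63% of the windows beside them. The GC content of the 3' UTR windows had a median of 39.8% in members and 39.3% in the other 3' UTR sites. Within the members in 3' UTRs it was lower in the 10 with the sequence, at 34.83%, than in the 30 without it, at 41.04%. The part of base composition in the share with TATCGAT was not tested. Of the 10 sites 8 had another gene's TSS as their nearest, at distances that ran from 523 to 9779 bp over the 10, with a median of 1254 bp. In the 30 members in 3' UTRs without the sequence the median distance was 2546.5 bp, and 19 had another gene's TSS as their nearest. All 10 had a peak in both replicates' lists, 2 were thresholded (exu and fw), and 6 were on the X. Of the 30 without the sequence 25 had a peak in both lists, 4 were thresholded and 4 were on the X. RpL13, a protein of the large ribosomal subunit, is one of the 10 with its own TSS nearest. It had a pooled signal of 30.4, with 21.5 in replicate 1 and 11.97 in replicate 2. PsGEF had 26.5 and CG13003 26.4 near the limit of the ranking, and the coding site of bun had 36.3.

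**Figure D4:**
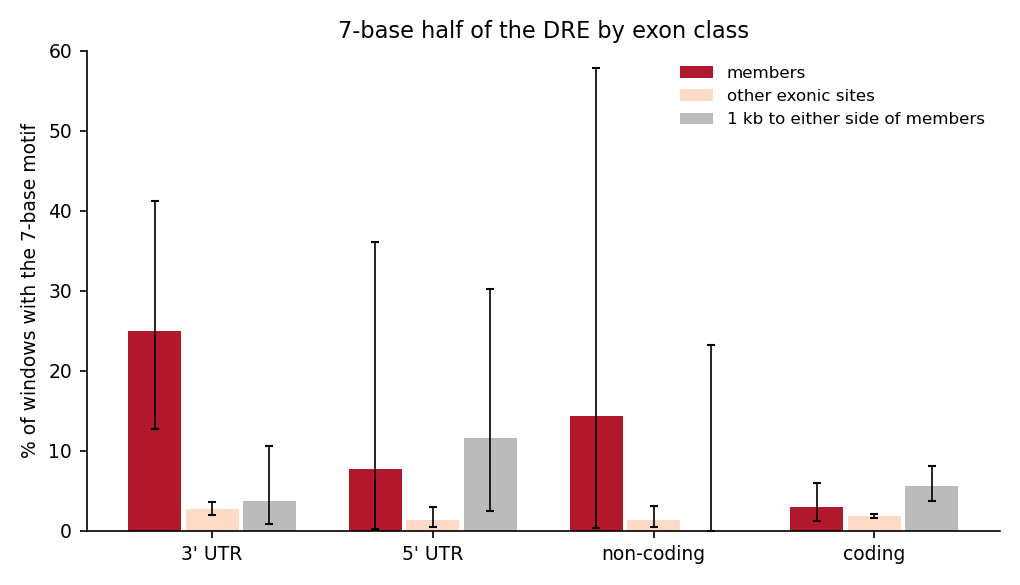
Percent of windows (100 bp to each side of the centre) with TATCGAT in members, in other exonic sites of the class and 1000 bp to either side of the members, by exon class, with 95% exact intervals over windows. Members in 3' UTRs stand at 25%, against 2.65% and 3.75%, while intervals of the 13 members in 5' UTRs and the 7 non-coding ones are wide.

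Most exonic copies of the DRE had no peak. Of 374 copies in exons over 500 bp from a TSS 38 lay within 100 bp of a ranked summit (10.2%, 7.29 to 13.7) and 3 of a thresholded one (0.802%, 0.166 to 2.33). Of 1565 copies within 500 bp of a TSS 1038 lay at a ranked summit (66.3%, 63.9 to 68.7) and 722 at a thresholded one (46.1%, 43.6 to 48.6). In introns 9.002% of 1222 copies lay at a ranked summit, and between genes 7.23% of 858. Away from starts the share of copies at a ranked summit was thus between 7.23% and 10.2%, and near starts 66.3%.

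CAGGTAG was in 13 members (4.33%, 2.33 to 7.30), 1.78% of the other exonic sites, 2.17% of the windows beside the members and 0.667% of the 300 highest promoter sites. It was in 2.33% of the 300 exonic sites next in rank, 1.33% of the 300 highest intronic and 2.67% of the intergenic sites. Over all ranked peaks the share was 1.49%. None of the 14 thresholded members had it (0 to 23.2% by the same interval), and neither did any of the 69 strongest members. The first was clt, at rank 70 with a pooled signal of 31.96. GAGAGAG, the target of GAGA factor, was in 3 members (1.00%), 1.65% of the other exonic sites, 14.7% of the 300 highest intronic sites, 6.67% of the intergenic ones, 1.00% of the promoter ones and 3.62% of all ranked peaks. The repeat CAGCAGCAG, which is common in fly coding sequence, was in 18 members (6%), 6.003% of the other exonic sites and 3.10% of all ranked peaks. The Motif 1 sequence GGTCACACT of fly core promoters and the B box of tRNA genes were in no member, which allows up to 1.22% for each by the same interval. Their shares of all ranked peaks were 0.805% and 0.232%.

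The median GC content of the member windows was 53.7%, against 52.7% in the other exonic sites, 45.8% in the 300 highest intronic, 44.3% in the intergenic and 35.8% in the promoter sites. The members of ranks 4 to 21 had a median of 41.3%, and those of ranks 22 to 100 one of 54.7%. The band of ranks 4 to 21 was drawn after the values were seen, to end at CG14024, a thresholded member. Of its 18 members 10 were thresholded, and 1 of ranks 22 to 100 was too. Coding members, of which the band of ranks 4 to 21 held 5 in 18, had a median of 55.7%. The X held 35 members (11.7%, 8.26 to 15.9), against 18.0% of all exonic sites. The 300 highest intronic, intergenic and promoter sites had 14%, 13.7% and 13.3% on the X.

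Members lay at a median of 1323.5 bp from the nearest TSS, against 1704.5 bp for the other exonic sites, with 94 within 1000 bp and 26 beyond 5000 bp. None was within 500 bp of a RefSeq TSS, a second annotation. A thresholded promoter summit lay within 1000 bp of 25 members (8.33%, 5.47 to 12.1), against 4.15% of the other exonic sites, 9% of the 300 exonic sites next in rank and 4.00% of the 300 highest intronic sites. The chromatin was sheared to 200 to 800 bp, per the labels. Whether fragments from such promoters add signal to these members was not tested.

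The members lay in exons of 295 genes, 285 of them protein-coding and 10 non-coding, since 5 members overlapped exons of more than 1 gene and 9 genes held more than 1 member. Mbs, the myosin-binding subunit of myosin phosphatase, held 3, with pooled signals of 30.4, 28.0 and 26.9. The peaks of the last pair overlapped and matched the same peak of replicate 2, so they are 1 stretch of DNA. A thresholded peak within 500 bp of a TSS of the host gene was present for 87 members (29.0%, 23.9 to 34.5), against 27.3% of the other exonic sites and 17.3% of all protein-coding genes. Members and other exonic peaks thus had promoter-bound hosts about equally often. In a last exon lay 149 members (49.7%), against 43.7% of the other exonic sites, and within 500 bp of the transcript's end 22.3%, against 18.6%. Over the members, host genes had a median length of 4531.5 bp from start to end. That was above the 2166 bp of all protein-coding genes and below the 5909 bp for the hosts of the other exonic sites.

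Gene groups were looked up among the hosts by name. Of all 13945 protein-coding genes of these arms 2.04% held a member, so lists of this length would hold few at that share, and nothing is read from their counts. No member lay in any of 26 early patterning genes, 16 of which had a ranked exonic site, or of 16 dorsoventral genes, 12 of which had one. Of 8 Hox genes Ubx had a member, a 3' UTR site with a signal of 31.2 in the pooled list, 18.9 in replicate 1 and 4.80 in replicate 2. Of 22 abundant housekeeping genes Pgk, phosphoglycerate kinase, had one with 34.3 (21.1 in replicate 1 and 14.5 in replicate 2). Of 17 architectural and chromatin genes ph-p had one (22.2 in replicate 1 and 16.2 in replicate 2). Of 15 muscle and giant structural genes that matched a symbol btsz, a synaptotagmin-like protein, had one with 27.3, and of 14 neuronal and adhesion genes Dscam2, a homophilic adhesion receptor, had one with 27.3. A thresholded promoter was present for none of the 26 early patterning and 8 Hox genes, 2 of the 16 dorsoventral, 2 of the 15 muscle, 4 of the 14 neuronal, 6 of the 22 housekeeping and 9 of the 17 architectural genes, against 17.3% of all protein-coding genes.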

How the data were processed

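ChIP-seq peak lists of 2 biological replicates were used. The authors deposited, per the labels and the readme text, dm6 lists of each replicate and of the pool, ranked and thresholded. The signal and score columns are deposited values; the score follows from the IDR and is capped at 1000, and neither the signal's scale, the caller, the aligner nor the read depth is given in the sources used here. In each ranked list 8 columns with other per-replicate values were left out, since nothing ties them to a sample. Genes and TSSs came from Ensembl release 115 on BDGP 6.54 without transposable elements, while sequence was read from NCBI's Release 6. Windows ran 100 bp to each side of the summit. Second copies were found with blastn 2.17.0 (e-value 1e-05). Counting code (Python 3.11.15, pandas 2.3.3, scipy 1.17.1) was tested on simulated data. No p-value was computed: sites of 1 pool are not replicates. The 17 motifs, the 7 gene lists and the members were chosen with earlier results of these data known, and the 9-base sequence after the strongest windows were read. Genes named are the 20 strongest members, thresholded members, the 4 highest of each exon class, those with TATCGATA, hosts of 3 or more members, sites at the rank limit and listed hosts; others named (CG5787, Gug, Prp5, clt and the sites of the closing section) were chosen after their values were seen.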

Additional observations from a re-analysis of the deposited data

How the results depend on the processing

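Alternatives changed 1 choice at a time. With members taken over 250 bp from a TSS, 22 were thresholded and the median TSS distance was 1146 bp. Over 1000 bp, that distance was 1890 bp and the share with TATCGATA 0.667%. At an IDR of 0.05, 51 members passed. Among the 100 highest sites 85.0% had a peak in both replicates, 70.0% were coding, 12% had TATCGAT and there were 98 host genes, and among the 600 highest there were 594. A match by summits within 100 bp put 57.7% of members in both replicates, and the replicates' thresholded lists 1.67%. With members taken from 1 replicate's own list (without replicate 1 or 2), 34.7 to 35.0% had a peak in both, 2.67 to 4.33% had TATCGAT, 1.00% had TATCGATA in either case, and 83 and 100 of the 300 members recurred. Without replicate 1, 3 such sites held CGTGTCACG, and without replicate 2, 5. The cause of these shifts was not tested, beyond the fewer sites taken or the rule itself. GC content, the share on the X, bound hosts and second copies stayed inside the intervals of the reported values under every alternative run. CGTGTCACG windows of 50 and 250 bp, and RefSeq TSSs, were added after seeing the data; the windows gave 2 and 4 members. No paired analysis was possible because the design has 1 group. Ranks below the first 21 are close in signal, and with read depth unknown their order has no stated error.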

Other observations

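The thresholded list held 4 further exonic sites over 500 bp from a TSS whose signals were below the limit of the 300 strongest. They lay in a coding exon of Ntmt with a signal of 23.5, in the 3' UTR of Sin1 with 20.2, in a coding exon of BEAF-32, the boundary protein that binds CGATA, with 19.7, and in the 3' UTR of CG18870 with 9.42. The CG18870 site (2R:21614213-21614616) overlaps the stronger CG18870 peak described above. All 4 are on arm 2R.

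Of the 14 thresholded members 8 were also in the conservative thresholded list, which held 12 members in all (4%). It held 50 of the 300 highest intronic, 42 of the intergenic and 288 of the promoter sites, and 4 of the 13626 other exonic sites. CG14024 and Nup358 passed in the pool but were in neither replicate's own thresholded list, where their replicate signals were 18.4 and 21.03 for CG14024 and 16.4 and 20.2 for Nup358.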
